A study of Mus musculus with 6 samples.

Results

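The p53 response genes described here are Cdkn1a, which encodes the cyclin-dependent kinase inhibitor p21, and 9 genes named with it: Trp53, Mdm2, Ccng1, Gadd45a, Gadd45b, Btg2, Phlda3, Trp53inp1 and Sesn2. They were matched by symbol, and each of the 10 was found once among the 47729 annotated genes and passed the filter on low counts. Cdkn1a was chosen by its lower level in leene-KO libraries, so its difference between genotypes is given as a description and carries no test. The other 9 genes were named as members of the same response. The question was whether the fall of Cdkn1a was shared by the other targets of p53.

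The libraries came from lung endothelial cells (ECs) of male mice on the C57BL6 background, aged 14 weeks and kept on normal chow. All of them, WT included, had received Angiotensin II (AngII, a peptide that raises blood pressure) from an osmotic pump at 1000 ng/kg/min for 2 weeks, so no uninfused animals enter the comparison. The 3 KO libraries carry a deletion in all tissues of the mouse region homologous to LEENE, a long noncoding RNA of human ECs, and the other 3 libraries are WT. The labels describe CD31-enriched cells pooled from 3 mice in each group, whereas the methods of the study name sorting by CD144. Whether a library is 1 mouse or 1 preparation of a pool is thus not settled, and the p-values below measure only the spread between these libraries. The deleted lncRNA genes were not analysed here, and the genotype was taken from the labels.

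The p53 protein is a transcription factor that accumulates after DNA damage and other stresses and switches on genes for cell cycle arrest, DNA repair, metabolism and cell death. p21 is the classical effector of the arrest. Mdm2 is both a target of p53 and the ligase that marks p53 for degradation, which closes a feedback loop. Several of these genes also answer to other inputs, among them growth factor signalling, glucocorticoids, heat shock and amino acid shortage, so that none of them reads p53 activity alone.

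Total counts ranged from 24464324 to 35184063 per library, of which mitochondrially encoded genes took 37.4% to 54.5% in WT and 38.2% to 46.2% in KO. Markers of other lung cells were present beside those of ECs. The summed level of 15 EC markers was 2311 to 4143 CPM (counts scaled to the library size) in WT and 2558 to 4163 CPM in KO, and no marker on any list was at 0 in all libraries. The 8 alveolar type II markers summed to 5926, 56825 and 17380 CPM in WT and to 44245, 54204 and 44272 CPM in KO, so that WT replicates 1 and 3 stood apart from the remaining 4 libraries. Of the 10 macrophage markers, Lyz2, which alveolar type II cells also express, made up most of the sum, with 1428, 13007 and 4549 CPM in WT and 11416 to 13362 CPM in KO. The other 9 summed to 129, 355 and 309 CPM in WT and to 444, 183 and 199 CPM in KO, and the groups overlapped. The sum of 6 club cell markers was 15916 to 41711 CPM in WT and 35047 to 58759 CPM in KO. The 9 mesenchyme markers summed to 491 to 898 CPM in WT and 598 to 842 CPM in KO. Their log2 fold changes were positive in 4 and negative in 5. The lowest was Tagln, at 83.8, 68.9 and 84.9 CPM in WT against 29.3, 37.8 and 46.5 CPM in KO. It was the only one called lower by DESeq2 (adjusted p = 0.000497, 0.640% of all genes), and edgeR called 0. B cell markers were higher in KO, with sums of 88.6 to 156 CPM in WT and 277 to 345 CPM in KO. Of the 8, 3 were called higher by edgeR (Cd79a, Ms4a1 and Fcrla), against 0.0342% of all genes. T cell markers were scarce but also higher in KO (5.92 to 12.4 CPM in WT, 14.6 to 20.4 CPM in KO), with 0 of 8 called by edgeR. Their log2 fold changes were positive in all 8. All KO libraries lay above all WT libraries for 4 of them, against 8.59% of all genes. Of these 4, Cd8a was at only 0.171, 0.117 and 0.281 CPM in WT. It passed the filter on low counts through the KO libraries alone, which favoured a positive value. Neutrophil markers were scarce (29.3 to 75.1 CPM in WT, 47.7 to 54.8 CPM in KO).

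Cdkn1a (ENSMUSG00000023067, GRCm38 chr17:29090979-29100722, plus strand) has 2 annotated start sites, 2790 bases apart. The promoter sequences were taken from RefSeq on GRCm38.p6, which had an entry for 9 of the 10 genes. The 150 bases before each start site of Cdkn1a are shown 5′ to 3′, because the upstream one carries the sequence through which p53 is known to act on this gene. Capitals mark matches to the 10-base p53 half-site, the repeat unit of a p53 binding sequence, in the first sequence, and the GC box GGGCGG in the second.
Cdkn1a upstream start site, chr17:29090829-29090978, plus strand: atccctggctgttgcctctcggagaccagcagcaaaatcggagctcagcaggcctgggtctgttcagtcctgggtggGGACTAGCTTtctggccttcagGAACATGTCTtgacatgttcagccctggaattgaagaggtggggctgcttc
Cdkn1a downstream start site, chr17:29093619-29093768, plus strand: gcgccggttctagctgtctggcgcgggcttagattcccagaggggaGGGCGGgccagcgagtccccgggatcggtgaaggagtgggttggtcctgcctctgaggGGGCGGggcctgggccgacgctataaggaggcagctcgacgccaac
The 2 half-sites before the upstream start site begin 73 and 51 bases before it and lie 12 bases apart. The 10 bases that directly follow the second of them differ from the half-site at 1 of 10 positions and are left in lower case. The capitals thus show exact matches and do not outline the sequence through which p53 is known to act. A pair of exact half-sites at most 13 bases apart was found in 21 of 32851 promoters (0.0639%) within 250 bases of the start. Cdkn1a was the only one of the 9 matched members among them. Its pair is that of the 2 marked matches and not that of the second with the bases directly after it.

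At least 1 half-site was present in 5 of the 9 matched members, against 7.13% of all promoters. The matches of the other 4 are shown with 10 bases on each side, with the half-site in capitals, since these genes share that sequence with Cdkn1a and can be set beside it below.
Trp53, chr11:69580274-69580303, plus strand: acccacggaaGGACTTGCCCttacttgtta
Mdm2, chr10:117710925-117710954, minus strand: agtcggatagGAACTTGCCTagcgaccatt
Ccng1, chr11:40755452-40755481, minus strand: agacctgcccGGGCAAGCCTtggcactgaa
Gadd45a, chr6:67037428-67037457, minus strand: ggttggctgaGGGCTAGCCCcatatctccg
No half-site was found in the 250 bases before the starts of Gadd45b, Btg2, Phlda3 and Sesn2, and Trp53inp1 had no entry. p53 sites are known in introns and further upstream of several of these genes, so these windows do not describe the whole gene. Motifs were read on both strands. The GC box GGGCGG was in 32.7% of all promoters and in those of Cdkn1a (downstream start site), Mdm2, Gadd45a, Gadd45b, Btg2, Phlda3 and Sesn2. The cyclic AMP response element TGACGTCA, in 1.55% of all promoters, was found only in Btg2 among the matched members. TATAAA (12.4% of all promoters) was present in Trp53 and Gadd45b, whereas TGANTCA (AP-1, 6.75%) and GAANNTTC (a pair of heat shock factor units, 6.69%) were in none of them. A match gives the presence of these letters and not the binding of a factor.

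Cdkn1a was at 150, 156 and 156 CPM across WT against 51.4, 42.0 and 47.5 CPM across KO (3 libraries each). The groups were far apart, and the lowest WT value was well above the highest KO value. The means were 154 ± 3.80 CPM in WT and 47.0 ± 4.68 CPM in KO (SD, n = 3 each), which gives -1.71 as the log2 fold change, with a standard error of 0.14, or 3.28-fold lower. In bulk RNA, fewer cells that express a gene and less of its RNA per cell cannot be told apart. The coefficient of variation was 2.47% among WT libraries and 9.96% among KO libraries. The summed alveolar type II markers of these libraries were 5926 to 56825 CPM in WT and 44245 to 54204 CPM in KO, and their part in the difference of Cdkn1a was not tested. Leaving out each library in turn gave log2 fold changes between -1.80 and -1.67.

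**Figure D1:**
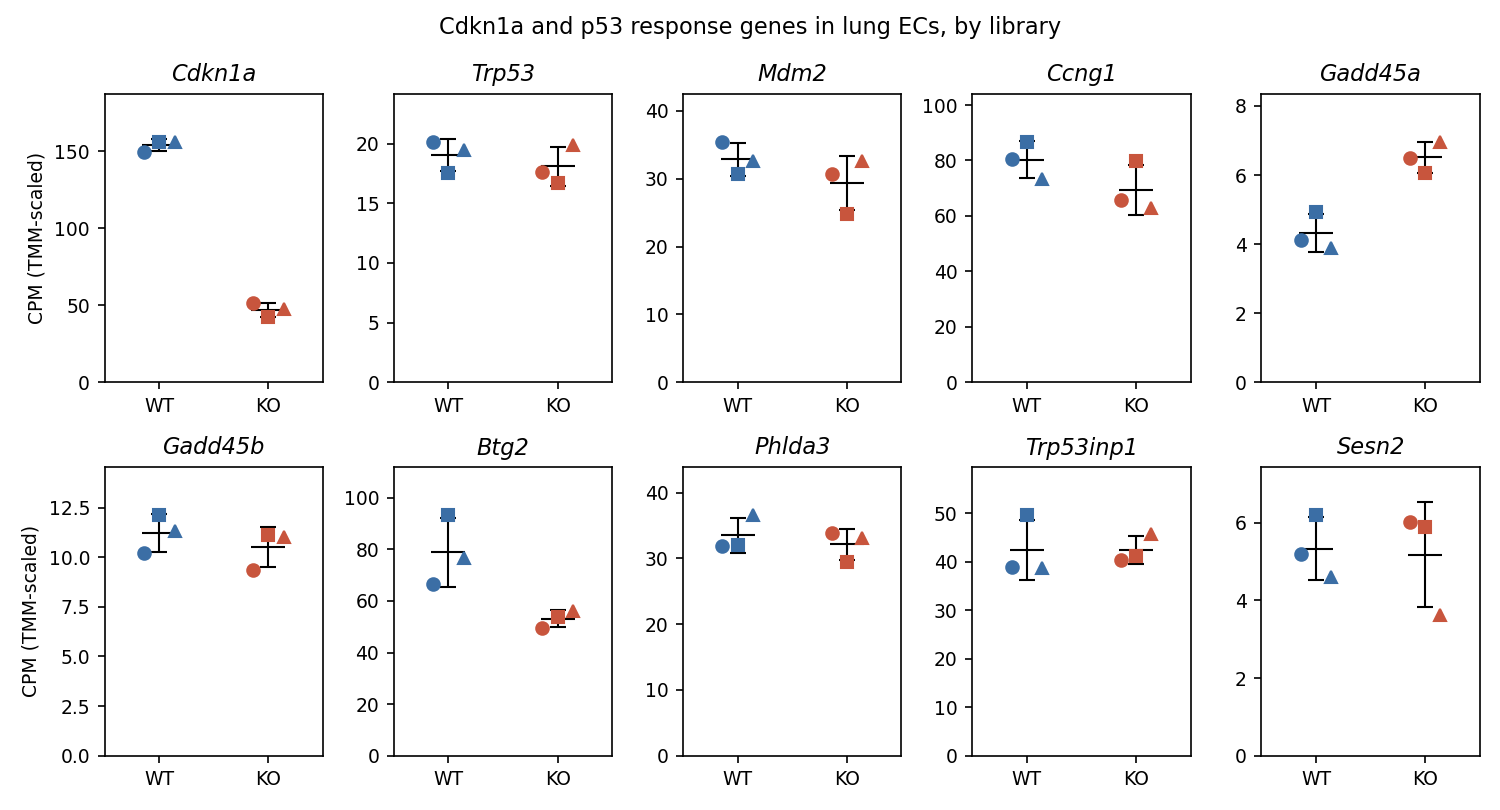
Level of each p53 response gene in CPM scaled by TMM (y axis, from 0) in 3 WT (blue) and 3 KO (red) libraries, with circle, square and triangle for replicates 1, 2 and 3 and black lines for the mean ± SD. Cdkn1a lay at 150 to 156 CPM in WT and 42.0 to 51.4 CPM in KO, and the groups also did not overlap for Btg2 (lower in KO) and Gadd45a (higher in KO).

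Per kilobase of counted exon length, Cdkn1a was the most abundant of the 10 genes in WT, with 67.3 to 70.3 CPM per kb. It was followed there by Btg2 (mean of 28.8 CPM per kb), Ccng1 (22.9) and Phlda3 (21.5), and its WT values did not overlap with those of any other member. In KO its level of 18.9 to 23.1 CPM per kb lay among those of Phlda3 (18.9 to 21.8), Ccng1 (17.9 to 22.7) and Btg2 (18.1 to 20.4), and the ranges of these 4 genes overlapped. The remaining members kept to lower levels in both genotypes. The means in WT and KO were 8.87 and 8.31 CPM per kb for Gadd45b, 6.56 in both for Trp53inp1, 6.49 and 5.80 for Mdm2, 4.71 and 4.47 for Trp53, 2.44 and 3.69 for Gadd45a, and 1.53 and 1.49 for Sesn2. The neighbors Trp53inp1 and Mdm2 overlapped in WT.

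Neither gene of the feedback loop passed the test. Trp53 (chr11:69580359-69591873), which encodes p53 itself, was at 20.2, 17.5 and 19.5 CPM in WT against 17.6, 16.7 and 19.9 CPM in KO. The groups overlapped, and the log2 fold change was -0.08 with a 95% confidence interval of -0.38 to 0.23 (edgeR quasi-likelihood test with Benjamini-Hochberg adjustment over 14625 genes, adjusted p = 0.845). Mdm2 (chr10:117688888-117710758) was at 35.5, 30.6 and 32.6 CPM in WT against 30.7, 24.9 and 32.6 CPM in KO. One KO library was below all WT libraries and the others lay within their range, and the log2 fold change was -0.16 (interval -0.49 to 0.17, edgeR adjusted p = 0.686). These intervals refer to the level of RNA and say nothing of the amount or activity of the p53 protein.

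Ccng1 (chr11:40748552-40755311) encodes cyclin G1, a p53 target that recruits a phosphatase to the Mdm2 protein. It was at 80.6, 86.8 and 73.5 CPM in WT against 65.7, 79.6 and 62.9 CPM in KO. KO replicates 1 and 3 were below all WT libraries and KO replicate 2 was not. The log2 fold change was -0.21 (interval -0.55 to 0.13, edgeR adjusted p = 0.624).

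Of the genes of growth arrest, Btg2 came closest to Cdkn1a. It lies at chr1:134075170-134079120, encodes an antiproliferative protein that binds the CCR4-NOT deadenylase, and is also an immediate early gene. It was at 66.6, 93.3 and 76.7 CPM in WT against 49.6, 53.9 and 55.9 CPM in KO. Every KO library was below every WT library, with means of 78.9 ± 13.5 CPM in WT and 53.1 ± 3.26 CPM in KO (SD, n = 3 each). The log2 fold change of -0.57 (standard error 0.16, interval -0.93 to -0.21) had an unadjusted p of 0.00675 and did not pass the adjustment by edgeR (adjusted p = 0.319) or by DESeq2 (adjusted p = 0.0918). Over all alternatives its adjusted p was between 0.0914 and 0.734.

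Gadd45a and Gadd45b encode small stress sensors that bind p21, CDK1 and the kinase MTK1. Gadd45a (chr6:67035096-67037457) was at 4.11, 4.93 and 3.89 CPM in WT against 6.49, 6.07 and 6.97 CPM in KO. Here all 3 KO values exceeded all 3 WT values, opposite in sign to Cdkn1a, and the log2 fold change was 0.59 (standard error 0.18, interval 0.18 to 1.0). The unadjusted p was 0.0110 and the adjusted p was 0.365 by edgeR and 0.336 by DESeq2, with a range of 0.0949 to 0.805 over all alternatives. The gene is overlapped on the other strand by E230016M11Rik, which the strand-specific counting keeps apart. Gadd45b (chr10:80930091-80932204) was at 10.2, 12.1 and 11.3 CPM in WT against 9.37, 11.1 and 11.0 CPM in KO. The groups overlapped (log2 fold change -0.09, interval -0.44 to 0.25, edgeR adjusted p = 0.827).

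Phlda3 and Trp53inp1 belong to the arm of the response that restrains survival signals and promotes autophagy and cell death. Phlda3 (chr1:135766119-135769136), whose product competes with AKT for membrane lipids, was at 31.9, 32.1 and 36.6 CPM in WT against 33.9, 29.5 and 33.0 CPM in KO. The log2 fold change was -0.06 (interval -0.35 to 0.23, edgeR adjusted p = 0.870), and the groups overlapped. Trp53inp1 (chr4:11156431-11174379), a nuclear and autophagosomal partner of p53, was at 38.9, 49.7 and 38.8 CPM in WT against 40.3, 41.3 and 45.8 CPM in KO. WT replicate 2 was the highest of the 6 libraries, all KO values lay between the lowest and the highest WT value, and the log2 fold change was 0.00 (interval -0.33 to 0.33), which did not pass the test.

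Sesn2 (chr4:132492032-132510501) encodes sestrin 2, a leucine sensor that restrains mTORC1 and is induced by p53 as well as by ATF4. It was at 5.19, 6.20 and 4.59 CPM in WT against 6.02, 5.89 and 3.62 CPM in KO, from 98 to 212 counts per library. KO replicate 3 was the lowest and the other KO libraries lay within the WT range. Its log2 fold change was -0.05, and its interval of -0.62 to 0.52 was the widest of the 9 (edgeR adjusted p = 0.957).

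**Figure D2:**
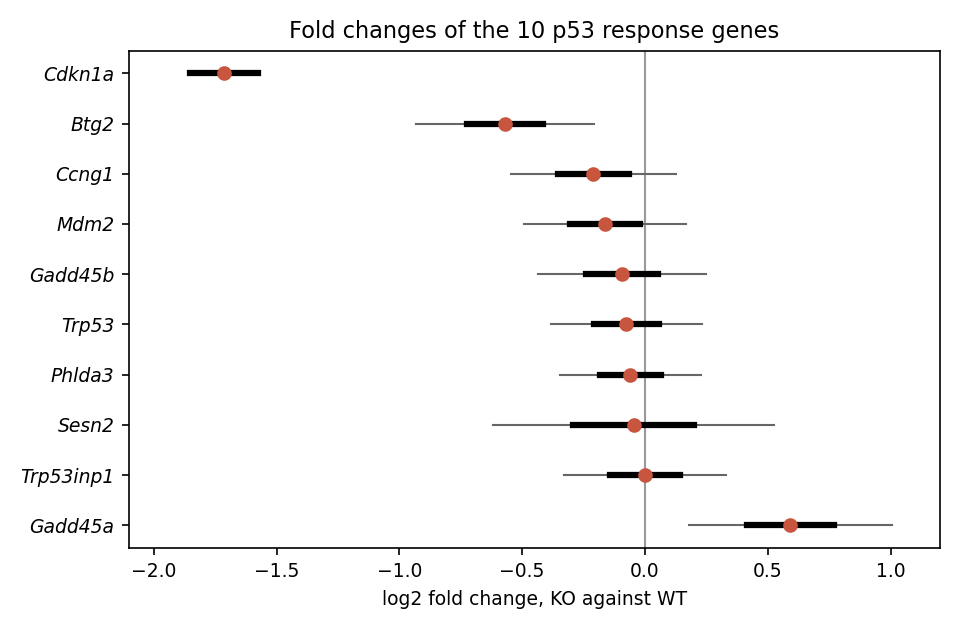
Log2 fold change of KO against WT (x axis) for the 10 genes, with thick bars for ± 1 standard error and thin bars for the 95% confidence interval, which is not drawn for Cdkn1a because the gene was chosen by this value. Cdkn1a lies at -1.71, and the other 9 intervals lie between -0.93 and 1.0.

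Of the 10 members, 1 was called lower in KO (Cdkn1a) and 0 were called higher, where 0.0752% and 0.0342% of all tested genes were called in these directions. Since Cdkn1a was selected on this contrast, its call adds nothing to this count. Without any 1 of the 3 KO libraries edgeR called 0 genes in all, Cdkn1a included. Of the other 9, 0 passed the adjusted p of edgeR, DESeq2 or limma-voom, and at an unadjusted p under 0.05 there was 1 lower (Btg2) and 1 higher (Gadd45a), against 4.68% and 5.62% of all genes. With DESeq2 and limma-voom, 0.640% and 0.116% of all genes were called lower, and DESeq2 called 0.569% higher. All KO libraries lay below all WT libraries in 1 of the 9 and above them in 1, which compares with 9.20% and 8.59% of all genes. The log2 fold changes of the 9 were negative in 7 and positive in 2, with a median of -0.08, while the median of all genes was 0.03. The 95% intervals of the 9 lay between -0.93 (Btg2) and 1.0 (Gadd45a). A p that misses the threshold does not show equal levels. The intervals are not adjusted for the number of genes and do not give the smallest difference that edgeR would call with 3 libraries a group. Btg2 and Gadd45a, whose intervals leave out 0, were not called. Of the other p53 targets described below, Ddit4 at -1.33 was not called by edgeR either.

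A ratio of the counts of 2 genes within a library does not depend on how the libraries are scaled to each other. Cdkn1a gave 4.22, 5.10 and 4.80 counts per count of Mdm2 in WT and 1.67, 1.69 and 1.46 in KO. The ratio to Trp53 was 7.42, 8.91 and 8.02 in WT and 2.91, 2.51 and 2.38 in KO, and the ratio to Ccng1 was 1.86, 1.80 and 2.13 in WT and 0.782, 0.528 and 0.754 in KO. In each of the 9 cases the groups did not overlap. The mean ratio was 2.24 times as high in WT as in KO against Btg2, where the difference was smallest, and 5.0 times against Gadd45a, where it was largest. Cdkn1a made up 33.8%, 31.9% and 34.4% of the counts of the 10 genes in WT and 16.5%, 13.5% and 14.9% in KO. These values follow in part from the choice of Cdkn1a and are given as a description.

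**Figure D3:**
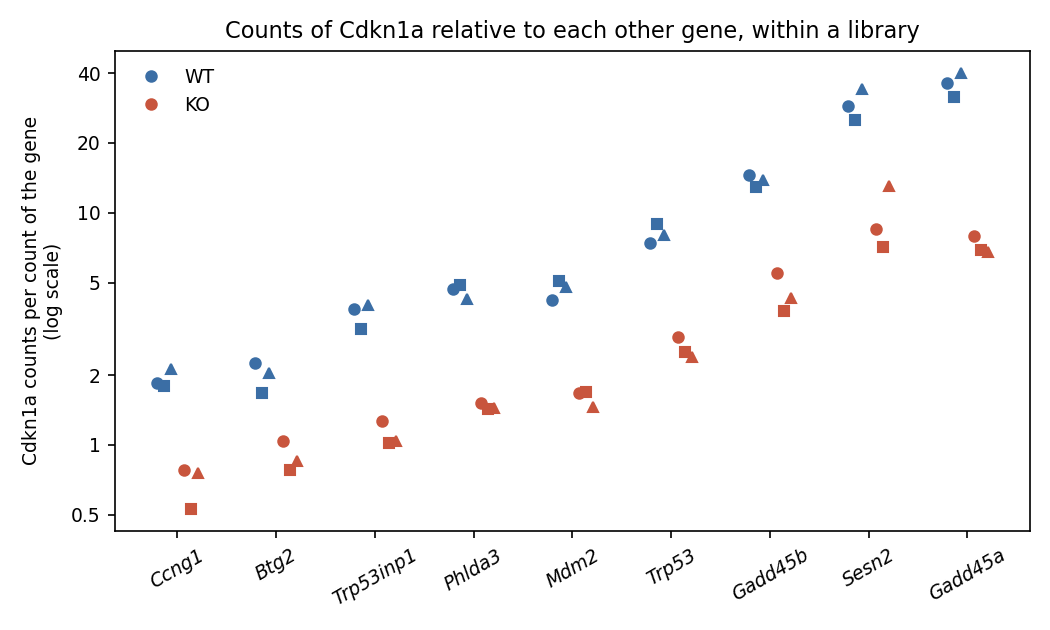
Counts of Cdkn1a divided by the counts of each other member in the same library (y axis, log scale) for 3 WT (blue) and 3 KO (red) libraries, with circle, square and triangle for replicates 1, 2 and 3. All KO ratios lie below all WT ratios for each of the 9 genes, with 1.67, 1.69 and 1.46 in KO and 4.22 to 5.10 in WT for Mdm2.

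A list of 38 other p53 targets, among them the genes of apoptosis Bax, Bbc3, Fas and Pmaip1, was set beside the members. All 38 were tested, and 0 were called by edgeR or limma-voom in either direction. At an unadjusted p under 0.05, 4 of the 38 were lower and 2 were higher, against 4.68% and 5.62% of all genes. Fold changes were positive in 21 and negative in 17, with a median of 0.04 beside the 0.03 of all genes. With total counts as the scale both medians turned negative, to -0.14 and -0.13, and without WT replicate 2 the median of the 38 was -0.04. KO libraries lay above all WT libraries for 5 of the 38 and below them for 6, against 8.59% and 9.20% of all genes.

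The lowest was Ddit4, which encodes REDD1, an inhibitor of mTORC1 that is also induced by glucocorticoids and hypoxia. It was at 18.7, 24.7 and 22.1 CPM in WT against 7.18, 10.9 and 7.93 CPM in KO, without overlap. Its log2 fold change was -1.33 (standard error 0.20), with an adjusted p of 0.0852 by edgeR and 8.73e-06 by DESeq2, so that DESeq2 called it lower and edgeR did not. The highest, and also the one with the highest CPM, was Dram1, which encodes a lysosomal protein of autophagy and was at 58.0, 424 and 144 CPM in WT against 388, 439 and 344 CPM in KO. Its log2 fold change was 0.90 with a standard error of 0.61 (edgeR adjusted p = 0.619). WT replicates 1 and 3 were low and WT replicate 2 lay with KO, the same split as in the summed alveolar type II markers, whose part in the result was not tested. Without WT replicate 2, 4 of the 38 were called higher and 2 lower by edgeR, in a fit that called 660 genes (4.41%) higher and 131 (0.876%) lower among all 14950 tested, and Dram1, Ephx1, Sulf2, Dcxr, Ddit4 and Trp53i11 were the genes called. Among the members, Cdkn1a remained the only call without that library.

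**Figure D4:**
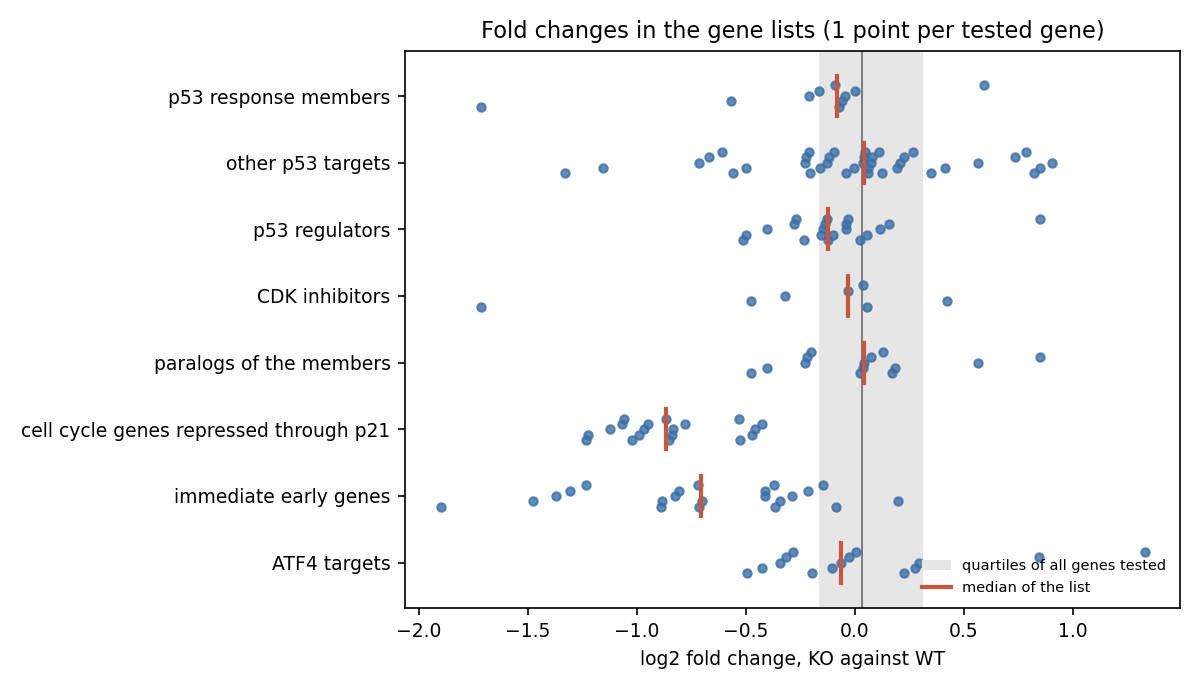
Log2 fold change of KO against WT (x axis) of the tested genes of each list (1 point per gene), with a red line for the median of the list, a grey line for the median of all 14625 tested genes and a grey band for their quartiles. The other p53 targets spread around the median of all genes, with a median of 0.04, while the cell cycle genes (-0.87) and the immediate early genes (-0.71) lie to the left of it.

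Upstream of the members, 20 regulators of p53 were tested, and 0 were called by edgeR, DESeq2 or limma-voom. At an unadjusted p under 0.05, 4.68% of all genes were lower and 5.62% higher, and 0 of the 20 regulators were. The median of their log2 fold changes was -0.12, and 15 of 20 were negative. Mdm4, the partner of Mdm2 that inhibits p53, was at 0.02 (standard error 0.13). The lowest was Chek1, a kinase of the DNA damage checkpoint, at -0.51 (standard error 0.48, edgeR adjusted p = 0.709), and the highest was Trp63, a relative of p53, at 0.85 (standard error 0.75, edgeR adjusted p = 0.689). Hipk2, a kinase that phosphorylates p53, had the highest CPM of the list and a log2 fold change of -0.50 (standard error 0.24, edgeR adjusted p = 0.508).

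Among the 7 genes for inhibitors of cyclin-dependent kinases, none was called by edgeR apart from Cdkn1a, which was chosen on this contrast. Of all genes, 0.0752% were called lower and 0.0342% higher. Cdkn1b encodes p27 and was at 36.2, 36.4 and 33.6 CPM in WT against 36.2, 36.6 and 36.4 CPM in KO, or a log2 difference of 0.04 (standard error 0.11). Cdkn1c, which encodes p57, was at 29.7, 30.6 and 28.8 CPM in WT against 15.8, 22.1 and 26.2 CPM in KO. All KO libraries of Cdkn1c lay below all WT libraries, as in 9.20% of all genes. Its log2 fold change was -0.48 (standard error 0.19, edgeR adjusted p = 0.468). The highest was Cdkn2b, an inhibitor induced by TGF-β, at 0.42 (standard error 0.25, edgeR adjusted p = 0.578).

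Of 16 paralogs of the members, 14 were tested and 0 were called by edgeR, DESeq2 or limma-voom. At an unadjusted p under 0.05, 1 was lower and 1 higher (4.68% and 5.62% of all genes). Their median log2 fold change was 0.04, from -0.48 for Cdkn1c to 0.85 for Trp63. The highest CPM was that of Trp53inp2, the relative of Trp53inp1, at 414 to 540 CPM in WT and 365 to 466 CPM in KO, and the log2 fold change was -0.20 (standard error 0.20).

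p21 is known to lead, through the DREAM complex, to repression of genes of the cell cycle, and 19 of the 20 such genes listed were tested. All 19 had negative log2 fold changes, with a median of -0.87, the same sign as Cdkn1a and not the inverse one. Whether p21 had a part in these values was not tested. At an unadjusted p under 0.05, 12 of the 19 were lower (4.68% of all genes), and 10 had all KO libraries below all WT libraries (9.20% of all genes). None was called by edgeR or limma-voom (0 of 19), and DESeq2 called 1 lower, Top2a (0.640% of all genes). The lowest was Cdk1, which encodes the mitotic kinase, at -1.23 (standard error 0.43, edgeR adjusted p = 0.412). The highest was Mcm5, a part of the replicative helicase, at -0.43 (standard error 0.28, edgeR adjusted p = 0.609). Top2a, the one with the highest CPM, encodes a topoisomerase of dividing cells and was at 14.1, 14.5 and 28.0 CPM in WT against 9.50, 8.57 and 6.11 CPM in KO, and the log2 fold change was -1.22 (standard error 0.31, edgeR adjusted p = 0.287, DESeq2 adjusted p = 0.0191). WT replicate 3 was the highest, also in the summed level of the list, which was 84.4, 80.6 and 131 CPM in WT and 65.2, 50.7 and 47.1 CPM in KO. Without it, the median of the list was -0.66.

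Cdkn1a and Btg2 are also known to respond to immediate signalling, and 22 immediate early genes were tested for this reason. Their median log2 fold change was -0.71, and 21 of 22 were negative. Of the 22, 2 fell in KO by edgeR, against 0.0752% of all genes. Maff, a small Maf transcription factor, was at 50.5, 52.8 and 47.2 CPM in WT against 18.7, 17.8 and 21.8 CPM in KO (log2 fold change -1.37, standard error 0.13, edgeR adjusted p = 0.0188). Csrnp1, a nuclear protein induced by AXIN1, was at 28.4, 24.7 and 30.2 CPM in WT against 9.67, 12.1 and 11.9 CPM in KO (log2 fold change -1.31, standard error 0.15, edgeR adjusted p = 0.0352). DESeq2 called 6 of the 22 lower (0.640% of all genes) and limma-voom 2 (0.116% of all genes), and 13 were lower at an unadjusted p under 0.05 (4.68% of all genes). Of these 13, Egr3 was at 0.930, 0.998 and 0.796 CPM in WT against 0.172, 0.589 and 0.207 CPM in KO. It passed the filter on low counts only with the WT libraries, which favoured a negative value. The lowest fold change was that of Atf3, a stress-induced transcription factor, at -1.90 (standard error 0.27, edgeR adjusted p = 0.0721), and the highest was that of Egr1 at 0.20 (standard error 0.37). Jun, the one with the highest CPM, was at -0.34 (standard error 0.19, edgeR adjusted p = 0.561).

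Sesn2 and Ddit4 are known targets of ATF4 as well, the transcription factor of the integrated stress response. A list of 15 other genes held ATF4 targets and Atf4 itself. Of these, 0 were called by edgeR or limma-voom, and DESeq2 called 1 higher (0.569% of all genes). All KO libraries lay below all WT libraries for 4 of the 15 and above them for 1 (9.20% and 8.59% of all genes). At an unadjusted p under 0.05, 1 was higher and 2 were lower (5.62% and 4.68% of all genes). Their median log2 fold change was -0.06, from -0.50 for Psat1 (standard error 0.19) to 1.33 for Vldlr (standard error 0.37, edgeR adjusted p = 0.327, DESeq2 adjusted p = 0.0316). The highest CPM was that of Cebpg, a transcription factor that dimerises with ATF4, at -0.34 (standard error 0.14, edgeR adjusted p = 0.468).

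The genes whose profile over the 6 libraries was most like that of Cdkn1a were sought among 11627 genes with a mean log2 CPM above 1. Likeness was the root mean square distance between log2 CPM values, each gene centred on its own mean. The closest was Hspb1, a small heat shock protein, at a distance of 0.118, with 27.7, 27.7 and 27.3 CPM in WT and 11.4, 7.87 and 9.49 CPM in KO. It was followed by Dusp8, a phosphatase of stress-activated kinases (0.197), Tsc22d3, the glucocorticoid-induced leucine zipper protein (0.203), Maff (0.207) and Dnaja1, a heat shock cochaperone (0.233). Tsc22d3 was at 145, 196 and 150 CPM in WT against 50.5, 53.8 and 62.4 CPM in KO. Of the members, Btg2 came at rank 219 with a distance of 0.605 and Ccng1 at rank 2064, while Mdm2 (2215), Gadd45b (3637), Trp53 (3656), Phlda3 (3750), Sesn2 (5130) and Trp53inp1 (5208) came later and Gadd45a (9937) last. The order rests on 6 libraries in 2 groups and is given as a description.

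Genes next to Cdkn1a were examined as well. Within 500 kb on either side, 17 genes were tested, and 0 were called by edgeR (0.0752% of all genes lower, 0.0342% higher). Leaving aside Trp53cor1, described below, 1 gene had an unadjusted p under 0.05 (Srpk1, lower in KO), against 4.68% of all genes lower and 5.62% higher. The log2 fold changes of the 17 had a median of -0.11. The lowest was that of Srpk1, a kinase of splicing factors, at -0.45 (standard error 0.14, edgeR adjusted p = 0.385). The highest was that of Trp53cor1, the noncoding RNA also known as lincRNA-p21, which lies on the minus strand at chr17:29057474-29078961 and starts 12018 bases from the upstream start of Cdkn1a. It was chosen here after its values were seen, and it rests on 8, 0 and 3 counts in WT and 10, 12 and 18 counts in KO. Its log2 fold change was 2.11 (standard error 0.85). The gene passed the filter on low counts through the KO libraries alone, which favoured a positive value, so no test of it is given. It is left out of the count at an unadjusted p above.

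**Figure D5:**
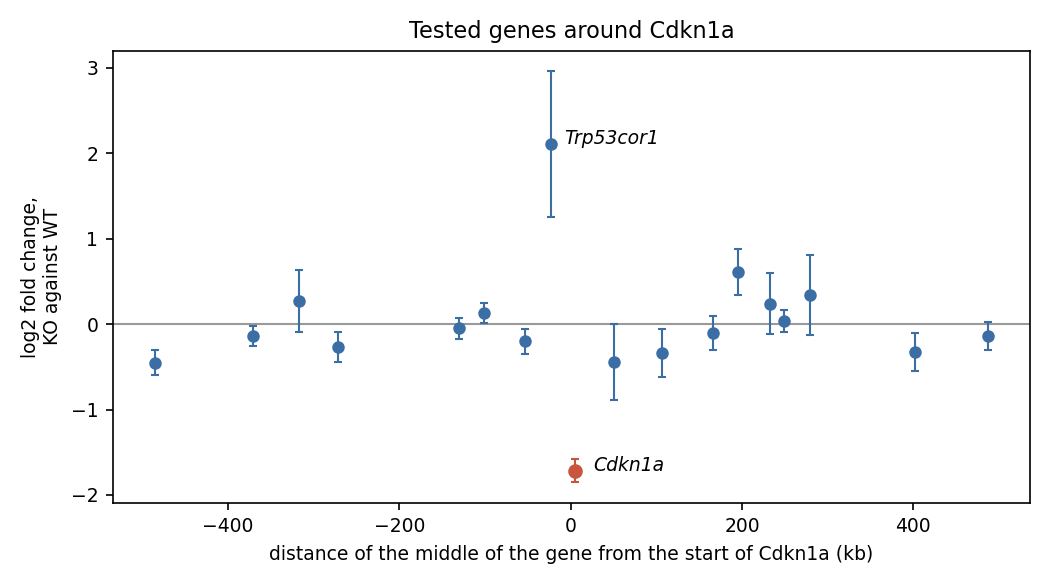
Log2 fold change of KO against WT ± standard error (y axis) of Cdkn1a (red) and the 17 tested genes within 500 kb (blue), by the distance of the middle of each gene from the start of Cdkn1a in kb (x axis). Cdkn1a lies at -1.71, Trp53cor1 at 2.11 on few counts, and the median of the 17 genes is -0.11.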

How the data were processed

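Strand-specific, poly(A)-enriched RNA-seq was analysed in 3 WT and 3 KO libraries of lung ECs, grouped and numbered by the sample labels. The values deposited by the authors are raw read counts of genes, with a separate table for each library. Per the file headers, uniquely aligned reads were counted with featureCounts 2.0.0, in the reverse orientation, over the exons of Ensembl release 84 on GRCm38, and the submitters' processing notes name STAR 2.5.4b. Reads with several alignments or overlapping genes were left out, and no member shared exons with another gene on its strand.

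Genes were kept by filterByExpr (14625 of 47729), scaled by TMM and tested by the quasi-likelihood test of edgeR 4.0.16 in R 4.3.3 with genotype alone, with Benjamini-Hochberg adjustment over all tested genes and a threshold of 0.05. CPM are counts scaled to 1000000 per library after TMM, and CPM per kb divides them by the summed exon length. The test was checked on simulated counts. No pair of libraries held identical counts. With 3 libraries a group, exact permutation could give no p below 0.1 for any single gene, and none was run.

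The members, the gene lists and the tests were chosen with earlier results of these data known. The rule for named genes took the 10 members, the genes of each other list that passed the test or otherwise its highest, lowest and most abundant gene in CPM, and the 5 genes most like Cdkn1a. Named outside this rule, after their values were seen, were Mdm4, Cdkn1b, Cdkn1c, Cdkn2b, Lyz2, Tagln, Cd8a, Atf3, Egr1, Egr3 and Jun. The neighbours of Cdkn1a and the targets called without WT replicate 2 were also named in this way. Cdkn1c also fell under the rule as the lowest of the paralogs. Alternatives were DESeq2 1.42.0, limma-voom (limma 3.58.1), other scalings and filters, the replicate number as a block and each library left out. The same alternatives for the medians of the remaining lists were added after seeing the data.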

Additional observations from a re-analysis of the deposited data

How the results depend on the processing

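Cdkn1a kept its direction under every alternative run, between -1.88 with total counts as the scale and -1.67, and was the only member called by any of them. It was not called with the replicate number as a block or without any 1 of the KO libraries, where 0 genes were called at all. Over all genes edgeR called 16. DESeq2 called 187, limma-voom 26, scaling by RLE 26, total counts 123, the fit without a filter 152 and the replicate block 0, with 1200 genes higher and 576 lower at an unadjusted p under 0.05 in the block. Leaving out 1 library gave 0 to 791 calls over all genes, with 791 without WT replicate 2, and 0 to 1 among the members. The block gave 0 calls among the members. Deviations of same-numbered WT and KO libraries correlated at -0.08, 0.22 and 0.01, and those of differently numbered libraries at -0.185 to 0.194. With 3 libraries a group, these values do not settle whether the numbers pair the libraries. Of the 38 other p53 targets 0 were called by edgeR, 1 by DESeq2, 1 with total counts and 1 without a filter (Ddit4 in each), and 0 to 6 with 1 library left out. Total counts moved the median of all genes from 0.03 to -0.13, that of the 9 other members to -0.24 and that of the 38 targets to -0.14. With 1 library left out, the median of the 9 was -0.13 to -0.08 and that of the 38 was -0.037 (without WT replicate 2) to 0.045. Trp53inp1, near 0 in the main test, was at -0.028 with DESeq2, -0.024 with RLE, -0.15 with total counts, -0.018 without mitochondrial genes, -0.0031 without a filter and -0.076 to 0.091 with 1 library left out, and Sesn2 was at -0.18 to 0.16 with 1 library left out. Sesn2 and Gadd45a rest on the fewest counts of the members, which limits the differences that could be detected in them.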
